A study of Homo sapiens with 12 samples.

Results

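The transcripts described here are 36 genes of the endoplasmic reticulum (ER): its chaperones and folding enzymes, its degradation and translocation machinery, and the sensors and regulators of the unfolded protein response (UPR). They are a named list grouped by function, drawn up with earlier results of these data known, and all 36 were found by Ensembl identifier among 61860 genes of the overexpression table and 62700 genes of the resistance table. All 12 libraries came from RT4, an established human bladder cancer line labelled wild type or with no other genotype, grown with 10% fetal bovine serum. In the first experiment, 3 libraries came from cells that received an ITGB4 plasmid with a Flag tag (ITGB4 is an integrin beta subunit) and 3 from cells that received the empty Flag vector, all in McCoy's 5A medium. In the second, 3 libraries of a cisplatin-resistant line, labelled as treated with cisplatin, stood against 3 libraries of parental cells labelled as treated with PBS, all in MEM. The resistant state and the cisplatin treatment go together by these labels, so they cannot be told apart in any comparison of resistant with parental cells. The labels give no time after transfection, no dose or length of cisplatin exposure, no promoter for the plasmid, and no statement on whether either line is a clone. In the plasmid and vector groups, one label of library 2 reads ITGB5 and one of library 3 reads ITGB6, although their titles read ITGB4. The parental columns of the count table carry names that match no sample title. They were taken as parental because they stand beside the resistant columns, and carry the letters a, b and c here.

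Proteins that enter the secretory pathway are threaded into the ER through the SEC61 channel, glycosylated, and folded by the chaperone BiP (HSPA5) with its J-domain partners, by the lectin chaperones calnexin and calreticulin, and by protein disulfide isomerases. When unfolded proteins build up, the membrane sensors IRE1 (ERN1), PERK (EIF2AK3) and ATF6 are activated: IRE1 splices XBP1 mRNA, PERK phosphorylates the translation factor eIF2 alpha and so slows translation, and ATF6 is cut to release a transcription factor. XBP1 and ATF6 raise chaperone and degradation genes through ER stress elements in their promoters, while PPP1R15A and PPP1R15B guide the phosphatase that restores eIF2 alpha. Terminally misfolded proteins are moved back to the cytosol and degraded, which is called ER-associated degradation.

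Promoter sequence was not part of the rule for these genes, but the rule named unfolded protein response genes. Such genes are known to be raised through ER stress elements, so a share above that of all genes follows from the list. A minority of the promoters held an exact match. RefSeq promoter sequence of GRCh38.p14 was held for 32 of the 36 genes; PDIA3, DERL1, DERL3 and SEC24D were not matched. The 250 bases before each start site were searched on both strands for the ER stress element (ERSE), which is CCAAT, any 9 bases and then CCACG, and for its second form (ERSE-II), which is ATTGG, any 1 base and then CCACG. ERSE was found before 8 of the 32 genes (25.0%), against 0.0916% of all 27305 genes in the table. The matches before these 8 genes are shown because they are the letters through which ATF6 and XBP1 are known to act. Each is written in the direction of the motif, with the CCAAT and CCACG ends in capitals and the spacer in lower case.
HSPA5 ERSE: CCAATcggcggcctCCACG
HSP90B1 ERSE, farther from the start: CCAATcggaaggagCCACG
HSP90B1 ERSE, nearer to the start: CCAATcgcgccgcaCCACG
CALR ERSE: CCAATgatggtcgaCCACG
CANX ERSE: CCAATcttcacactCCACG
PDIA6 ERSE: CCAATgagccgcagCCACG
XBP1 ERSE: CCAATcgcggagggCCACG
ERO1B ERSE: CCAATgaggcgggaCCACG
CRELD2 ERSE: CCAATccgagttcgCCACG

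ERSE-II was found before 3 of the 32 genes (9.38%), against 0.0659% of all genes. HYOU1 held the same 11 letters at both of its matches.
HERPUD1 ERSE-II: ATTGGgCCACG
HYOU1 ERSE-II: ATTGGaCCACG
SDF2L1 ERSE-II: ATTGGtCCACG

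The whole windows of HSPA5, HERPUD1 and DNAJC3 follow, 5′ to 3′ on each gene's strand and ending at the base before the start, with the matched element in capitals. HERPUD1 and DNAJC3 are shown because they had the largest changes that were called in both experiments, in opposite directions for HERPUD1 and in the same direction for DNAJC3, and HSPA5 because BiP is the central chaperone. Only exact matches were searched, and DNAJC3 held neither element in that form. Near matches were not counted: DNAJC3 holds cctatcagcgcgaaccacg, with CCTAT in place of CCAAT. HERPUD1 holds ccaatgggcggcagccaca, with CCACA in place of CCACG. HSPA5 holds ccaatgaacggcctccaac before its marked match, with CCAAC in place of CCACG. The windows are chr9:125241344-125241593 on the minus strand for HSPA5, chr16:56931892-56932141 on the plus strand for HERPUD1 and chr13:95676889-95677138 on the plus strand for DNAJC3.
HSPA5: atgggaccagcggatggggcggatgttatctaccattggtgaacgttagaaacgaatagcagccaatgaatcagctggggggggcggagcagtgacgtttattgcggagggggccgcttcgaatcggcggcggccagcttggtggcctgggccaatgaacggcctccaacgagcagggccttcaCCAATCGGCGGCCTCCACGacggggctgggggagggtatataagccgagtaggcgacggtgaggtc
HERPUD1: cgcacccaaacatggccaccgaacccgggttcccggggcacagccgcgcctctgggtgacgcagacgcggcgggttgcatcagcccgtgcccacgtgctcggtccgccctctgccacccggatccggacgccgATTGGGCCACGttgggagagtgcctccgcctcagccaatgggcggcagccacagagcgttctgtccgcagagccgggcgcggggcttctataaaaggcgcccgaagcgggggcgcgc
DNAJC3: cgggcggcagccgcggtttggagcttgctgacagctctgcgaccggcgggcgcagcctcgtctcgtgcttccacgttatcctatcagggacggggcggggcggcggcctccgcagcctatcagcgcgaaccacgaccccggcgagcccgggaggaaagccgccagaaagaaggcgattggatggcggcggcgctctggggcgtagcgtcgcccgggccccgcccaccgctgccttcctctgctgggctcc

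**Figure D1:**
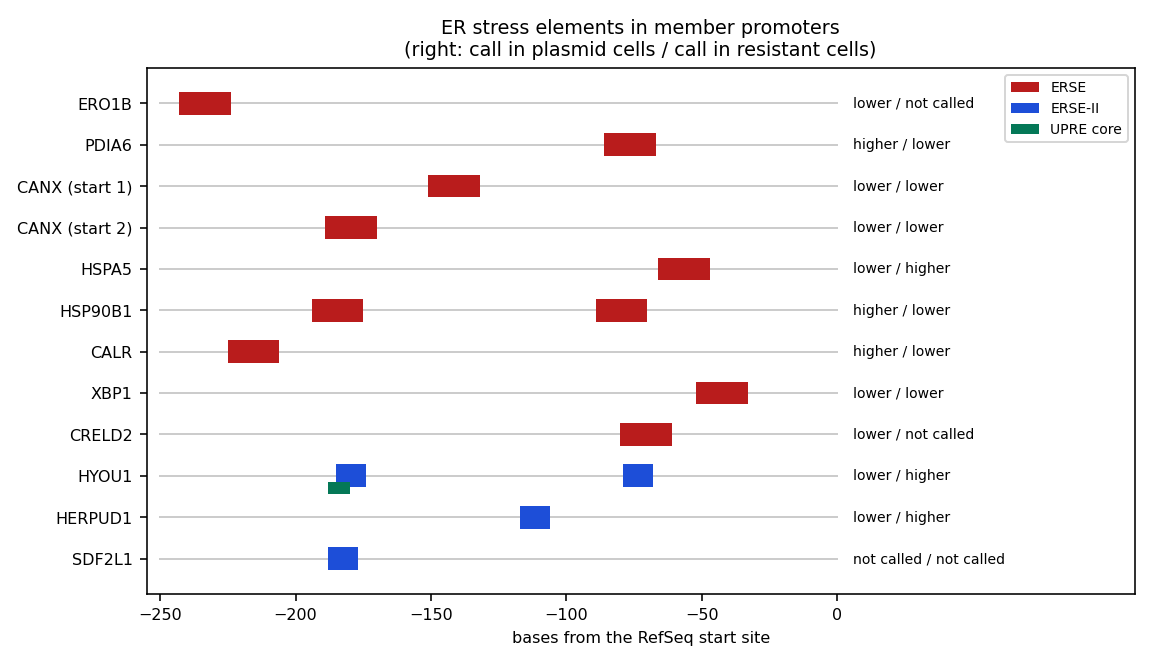
Positions of exact matches to ER stress elements in the 250 bases before the RefSeq start site (x axis, bases) of the 11 genes that hold one, with 2 annotated starts for CANX that share one element. Red bars mark ERSE, blue bars ERSE-II and the green bar a UPRE core, and the words at the right give the call in plasmid cells and then in resistant cells. The element lay 34 to 52 bases before the start in XBP1 and 225 to 243 bases before it in ERO1B, and its carriers were called in different directions.

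Positions in the plot of element positions ran from 34 to 52 bases before the start of XBP1 to 225 to 243 bases before the start of ERO1B. A UPR element core, TGACGTGG, was found before 1 of the 32 genes, HYOU1, against 0.780% of all genes, and it overlapped the farther ERSE-II of that gene. TGATGNAAT, the form searched for the element bound by ATF4, was found before 0 of the 32, against 1.09% of all genes. Forms that end in another base were not searched. TGATGCAAC stands in the PPP1R15B window and, on the other strand, in the HERPUD1 window, so absence of ATF4 sites was not shown. The CCAAT box alone, which is part of ERSE, was found before 27 of the 32 (84.4%) and before 37.0% of all genes.

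Counts per gene were summed to 22701466 to 33352045 in the overexpression libraries and 31824582 to 38199946 in the resistance libraries. Levels are given as counts scaled to library size (CPM) with TMM factors, and a gene is called changed when its Benjamini-Hochberg adjusted p, over all genes tested in that experiment, was under 0.05. The figure after ± beside a log2 fold change is the change divided by the square root of its F statistic, an approximate standard error; every group has n = 3 libraries. Nothing in the labels says that replicates were separate cultures, so p-values measure the spread between these libraries. ITGB4 was at 1485, 1379 and 1416 CPM in plasmid libraries, against 858, 879 and 871 CPM in vector libraries (log2 fold change 0.71 ± 0.026, adjusted p = 2.22e-13). It was also higher in the second experiment, at 848, 831 and 832 CPM in resistant libraries, against 602, 598 and 600.3 CPM in parental libraries (0.48 ± 0.033, adjusted p = 1.45e-09). The 10 urothelial and epithelial markers, all detected, summed to 6623 to 7089 CPM in plasmid libraries and 5102 to 5285 CPM in vector libraries, and to 7773 to 8985 CPM in resistant libraries and 7112 to 7195 CPM in parental libraries. Keratins make up most of these sums, and members moved both ways: with the plasmid KRT8 was 1.68-fold higher while FGFR3 was 2.02-fold, UPK2 1.91-fold and EPCAM 1.17-fold lower, and in resistant cells FGFR3 was 2.45-fold higher while CDH1 was 1.29-fold lower. Leukocyte markers summed to at most 1.01 CPM and endothelial markers to at most 2.51 CPM in any library. Fibroblast markers summed to 24.4 to 26.0 CPM in plasmid libraries and 48.1 to 52.3 CPM in vector libraries, and to 4.43 to 5.73 CPM in resistant libraries and 11.5 to 12.02 CPM in parental libraries, with DCN, LUM and PDGFRB at 4 counts or fewer everywhere. Of the collagens in that sum, COL1A1 was 1.70-fold higher and COL3A1 2.54-fold lower with the plasmid, and COL1A1 was lower in resistant cells, at a log2 fold change of -1.32. The part of these shifts in the results below was not tested.

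In cells given the ITGB4 plasmid, most ER chaperone and UPR transcripts were lower than in vector cells. Of the 35 genes tested, 28 fell, 4 rose (HSP90B1, CALR, PDIA6 and WFS1) and 3 were not called (PDIA3, SYVN1 and SDF2L1). Among all 16950 genes tested, 72.2% were called, 35.7% lower and 36.5% higher. Of the 35 genes, 28 had every plasmid library below every vector library, against 37.1% of all genes tested. Another 4 had every plasmid library above, against 37.4%. These were the same genes as those called, so the separation adds little to the calls. The median log2 fold change was -0.33 over the 35 genes and 0.0017 over all genes tested. The 36 genes together summed to 9302, 9261 and 9233 CPM in plasmid libraries, against 11563, 11769 and 11635 CPM in vector libraries, 20.5% lower. In bulk RNA, less RNA per cell and fewer cells that make it cannot be told apart.

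**Figure D2:**
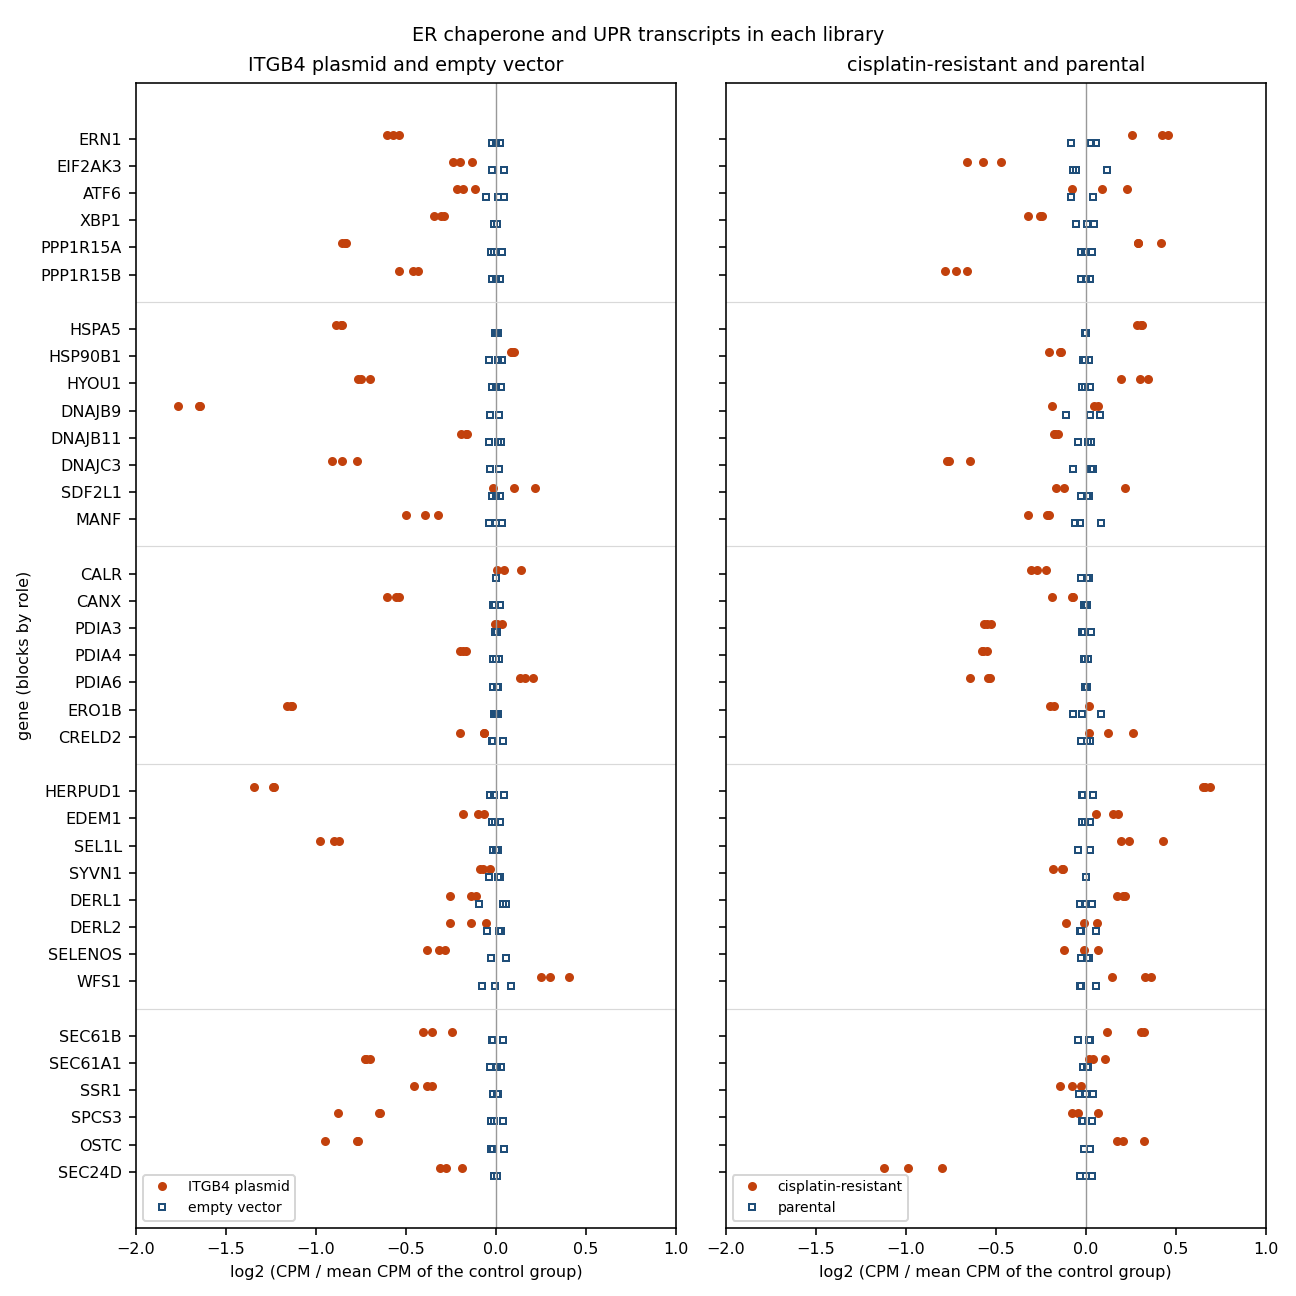
Level of each of the 35 detected genes in every library, as log2 of CPM over the mean CPM of the control group (x axis), with genes in blocks by role. Orange dots are the 3 plasmid libraries (left panel) or the 3 resistant libraries (right panel), and blue squares are the 3 vector or 3 parental libraries. In the left panel 28 genes have all plasmid libraries below all vector libraries, while the right panel has 14 below and 12 above.

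All 6 sensors and regulators fell in plasmid cells, where 35.7% of all genes tested were called lower. ERN1, which encodes IRE1, had 67.9, 69.5 and 66.4 CPM in plasmid libraries, against 102, 101.03 and 99.3 CPM in vector libraries (log2 fold change -0.57 ± 0.032, adjusted p = 5.08e-11). EIF2AK3, which encodes PERK, had 47.7, 51.3 and 49.1 CPM in plasmid libraries, against 55.4, 55.4 and 58.2 CPM in vector libraries (-0.19 ± 0.038, adjusted p = 0.000273). ATF6 had 76.5, 79.9 and 74.6 CPM in plasmid libraries, against 83.4, 87.4 and 89.3 CPM in vector libraries (-0.17 ± 0.036, adjusted p = 0.000352). For each of the 3 sensors the plasmid libraries all lay below the vector libraries, and the gap was widest for ERN1. XBP1, the transcription factor whose mRNA IRE1 splices, had 233, 224 and 230.3 CPM in plasmid libraries, against 282, 286 and 286 CPM in vector libraries (-0.31 ± 0.026, adjusted p = 9.76e-09). Gene counts do not separate spliced from unspliced XBP1. PPP1R15A, the stress-inducible phosphatase subunit GADD34, had 195, 196 and 193 CPM in plasmid libraries, against 342, 358 and 347 CPM in vector libraries, 1.79-fold lower (-0.84 ± 0.026, adjusted p = 2.42e-14). PPP1R15B, its constitutive relative, averaged 259.6 ± 9.47 CPM in plasmid libraries and 361 ± 5.67 CPM in vector libraries (SD; log2 fold change -0.48 ± 0.029, adjusted p = 1.65e-10). Of EIF2AK3's exon bases, 15.1% overlap genes on the opposite strand, from which reads counted without strand cannot be separated.

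BiP and most of its partners fell, and the other abundant ER chaperone of this block, HSP90B1, did not. HSPA5, encoding BiP, had 849.6, 847 and 832 CPM in plasmid libraries, against 1537, 1549 and 1529 CPM in vector libraries. That is 1.82-fold lower (log2 fold change -0.87 ± 0.021, adjusted p = 9.50e-16), with groups far apart beside the small spread within each. HYOU1, the nucleotide exchange factor GRP170 of BiP, had 263, 254 and 252 CPM in plasmid libraries, against 421, 435 and 427 CPM in vector libraries (-0.74 ± 0.026, adjusted p = 1.34e-13). DNAJB9, the J-domain co-chaperone ERdj4, had 12.2, 13.2 and 13.3 CPM in plasmid libraries, against 41.9, 40.5 and 41.8 CPM in vector libraries. At 3.20-fold lower it was the largest change of the group (-1.68 ± 0.049, adjusted p = 9.78e-15). DNAJC3, the J-domain protein p58IPK, had 92.3, 97.8 and 89.1 CPM in plasmid libraries, against 169, 169 and 163 CPM in vector libraries (-0.85 ± 0.034, adjusted p = 7.58e-13). These 4 genes had no overlap between the groups.

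Other BiP partners moved less. MANF, an ER-resident BiP cofactor, averaged 56.2 ± 3.42 CPM in plasmid libraries and 74.3 ± 1.95 CPM in vector libraries (log2 fold change -0.41 ± 0.041, adjusted p = 1.25e-07). DNAJB11, the J-domain protein ERdj3, averaged 68.6 ± 0.866 CPM in plasmid libraries and 77.3 ± 1.78 CPM in vector libraries (-0.17 ± 0.032, adjusted p = 0.000144), with 23.2% of its exon bases overlapping other genes, mostly on the opposite strand. SDF2L1, a partner of ERdj3, averaged 20.9 ± 1.68 CPM in plasmid libraries and 19.5 ± 0.285 CPM in vector libraries (0.11 ± 0.060, adjusted p = 0.113), and its groups overlapped. Without plasmid library 2 it was at 0.17 with an adjusted p of 0.0162. HSP90B1, the ER member of the HSP90 family known as GRP94, averaged 1346 ± 9.88 CPM in plasmid libraries and 1264 ± 32.4 CPM in vector libraries (0.09 ± 0.023, adjusted p = 0.00207). Its rise was not called with upper quartile scaling (0.03, adjusted p = 0.29).

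Lectin chaperones and disulfide enzymes were split. CANX, the membrane lectin calnexin, had 1046, 1096 and 1087 CPM in plasmid libraries, against 1575, 1620.5 and 1586 CPM in vector libraries (log2 fold change -0.57 ± 0.023, adjusted p = 1.06e-12). CALR, its soluble relative calreticulin, had a mean of 1138 ± 53.3 CPM in plasmid libraries and 1088 ± 1.12 CPM in vector libraries (0.06 ± 0.028, adjusted p = 0.0488). CANX was thus clearly lower in every plasmid library while CALR was at nearly the same level, and the call of CALR was lost without plasmid library 1 (0.03, adjusted p = 0.209) and without plasmid library 3 or any one vector library (0.06 to 0.08, adjusted p = 0.0565 to 0.122). ERO1B, an oxidase that recharges the disulfide isomerases, had 23.4, 23.5 and 23.0 CPM in plasmid libraries, against 51.9, 51.5 and 51.2 CPM in vector libraries, 2.21-fold lower (-1.14 ± 0.039, adjusted p = 6.90e-14). The disulfide isomerases themselves moved little. PDIA4 averaged 427 ± 4.38 CPM in plasmid libraries and 485 ± 5.88 CPM in vector libraries (-0.18 ± 0.023, adjusted p = 2.45e-06). PDIA6 averaged 484 ± 12.4 CPM in plasmid libraries and 431 ± 3.87 CPM in vector libraries (0.17 ± 0.025, adjusted p = 1.44e-05). PDIA3, the isomerase that works with both lectin chaperones, averaged 1031 ± 13.3 CPM in plasmid libraries and 1023 ± 4.99 CPM in vector libraries (0.01 ± 0.021, adjusted p = 0.672). Its direction turned with the scaling. Opposite-strand genes overlap 33.3% of the exon bases of PDIA3 and 25.2% of those of PDIA6. CRELD2, an ER-stress-induced disulfide isomerase, averaged 32.0 ± 1.68 CPM in plasmid libraries and 34.5 ± 0.828 CPM in vector libraries (-0.11 ± 0.045, adjusted p = 0.0450). Its call was lost without plasmid library 2 (-0.06, adjusted p = 0.26) and without vector library 1, 2 or 3 (-0.09 to -0.12, adjusted p = 0.0602 to 0.16).

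Of 8 degradation and ER membrane genes tested, 6 fell with the plasmid, against 35.7% of all genes tested. HERPUD1, a membrane scaffold of the ubiquitin ligase complex, had 38.3, 41.2 and 41.3 CPM in plasmid libraries, against 94.9, 100.4 and 96.5 CPM in vector libraries, 2.41-fold lower (log2 fold change -1.27 ± 0.038, adjusted p = 1.33e-14). SEL1L, the adaptor of that complex, had 151, 163 and 160.0 CPM in plasmid libraries, against 298, 301 and 295 CPM in vector libraries (-0.91 ± 0.030, adjusted p = 3.94e-14). Both were lower in every plasmid library. SYVN1, the ligase HRD1 itself, averaged 61.0 ± 1.13 CPM in plasmid libraries and 63.8 ± 1.46 CPM in vector libraries and was not called (-0.06 ± 0.034, adjusted p = 0.0989). It was called without plasmid library 1 (-0.08, adjusted p = 0.0399). SELENOS, a selenoprotein of the same complex, fell by 0.33 on the log2 scale (adjusted p = 3.92e-07), and EDEM1, a lectin that passes glycoproteins on for degradation, was at -0.12 (adjusted p = 0.00343). The derlins, membrane proteins of the exit channel, moved little, at -0.16 for DERL1 (adjusted p = 0.00324) and -0.14 for DERL2 (adjusted p = 0.0177). The DERL2 call was lost without plasmid library 1, vector library 2 or vector library 3 (-0.10 to -0.13, adjusted p = 0.0547 to 0.0685). WFS1, the ER membrane protein wolframin, rose to 75.2 ± 4.25 CPM in plasmid libraries, against 60.3 ± 3.41 CPM in vector libraries (0.32 ± 0.045, adjusted p = 7.70e-06). DERL3 had 0 counts in all 12 libraries, where the limit that a count of 0 allows (3 counts) is 0.0785 to 0.132 CPM, and 77.0% of its exon bases overlap SMARCB1 on the opposite strand.

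All 6 genes of translocation, glycosylation and export fell with the plasmid, against 35.7% of all genes tested. SEC61A1, the channel's pore subunit, had 354, 348 and 347 CPM in plasmid libraries, against 562, 585 and 576 CPM in vector libraries (log2 fold change -0.72 ± 0.025, adjusted p = 9.06e-14). SPCS3, a signal peptidase subunit, had 58.5, 68.6 and 68.4 CPM in plasmid libraries, against 106.6, 105 and 110.4 CPM in vector libraries (-0.72 ± 0.047, adjusted p = 4.37e-10). OSTC, a subunit of the oligosaccharyltransferase, had 32.6, 36.9 and 37.1 CPM in plasmid libraries, against 62.2, 64.9 and 61.9 CPM in vector libraries (-0.82 ± 0.045, adjusted p = 4.66e-11). In each of these genes the plasmid libraries lay well below the vector libraries, with plasmid library 1 the lowest for SPCS3 and OSTC. SSR1, of the translocon-associated complex, was at -0.40 ± 0.028 (adjusted p = 1.63e-09), SEC61B, the small beta subunit of the channel, at -0.34 ± 0.044 (adjusted p = 2.75e-06), and SEC24D, a cargo adaptor of the COPII coat, at -0.26 ± 0.034 (adjusted p = 3.07e-06). The 6 genes together summed 32.9% lower in plasmid cells, the sensors and regulators 29.1% lower, the degradation genes and the BiP system 25.3% lower each, and the lectin and disulfide genes 10.5% lower.

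In cisplatin-resistant cells the same genes did not move as a block. Of the 35 tested, 11 were higher than in parental cells, 14 were lower and 10 were not called, where 54.5% of all 16875 genes tested were called, 26.8% higher and 27.7% lower. Resistant libraries lay wholly above the parental ones for 12 genes, SEC61A1 among them although it did not pass the test, against 30.3% of all genes, and wholly below for 14, against 30.5%. The median log2 fold change was -0.02 over the 35 genes and 0.018 over all genes tested. The split moved with the scaling: 16 were higher and 9 lower when libraries were scaled by size alone, and 14 were higher and 10 lower with upper quartile factors. These scalings moved the median of all genes by 0.164 and 0.106 on the log2 scale, and called 6548 genes higher and 3111 lower, and 5761 higher and 3584 lower, where TMM scaling called 4520 higher and 4679 lower. By role, 5 of 8 degradation genes rose and 5 of 7 lectin and disulfide genes fell. The summed level of the degradation genes was 16.1% higher in resistant cells, at 808 to 821 CPM, against 699 to 707 CPM in parental libraries. That of the lectin and disulfide genes was 20.5% lower, at 2211 to 2290 CPM, against 2832 to 2869 CPM in parental libraries.

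Sensors and regulators went both ways. ERN1 had 86.2, 96.8 and 99.1 CPM in resistant libraries, against 68.1, 73.6 and 75.1 CPM in parental libraries (log2 fold change 0.38 ± 0.059, adjusted p = 2.85e-05). EIF2AK3 had 29.6, 27.8 and 31.7 CPM in resistant libraries, against 47.7, 42.4 and 41.9 CPM in parental libraries (-0.56 ± 0.072, adjusted p = 3.49e-06). ATF6 had 75.1, 92.8 and 84.5 CPM in resistant libraries, against 74.8, 81.4 and 81.6 CPM in parental libraries (0.09 ± 0.066, adjusted p = 0.286). IRE1's transcript was thus higher in every resistant library and PERK's lower in every one, while the ATF6 groups overlapped; without resistant library 1, ATF6 was called at 0.17 (adjusted p = 0.0119). XBP1 had 460.1, 464 and 439 CPM in resistant libraries, against 566, 529 and 551 CPM in parental libraries (-0.27 ± 0.039, adjusted p = 1.24e-05). PPP1R15A averaged 318 ± 16.5 CPM in resistant libraries and 253 ± 5.31 CPM in parental libraries (0.33 ± 0.043, adjusted p = 4.38e-06). PPP1R15B had 178, 186 and 193 CPM in resistant libraries, against 311, 301 and 307 CPM in parental libraries (-0.72 ± 0.042, adjusted p = 1.57e-10). The inducible and the constitutive phosphatase subunits thus lay on opposite sides of the parental level.

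BiP rose, and several of its partners fell. HSPA5 had 1042, 1045 and 1028 CPM in resistant libraries, against 839.9, 845 and 845 CPM in parental libraries, 1.23-fold higher (log2 fold change 0.30 ± 0.032, adjusted p = 3.57e-07). HYOU1 averaged 263 ± 13.98 CPM in resistant libraries and 216 ± 3.43 CPM in parental libraries (0.28 ± 0.044, adjusted p = 3.34e-05). DNAJC3 had 65.5, 65.9 and 71.6 CPM in resistant libraries, against 114, 106 and 115 CPM in parental libraries, 1.65-fold lower (-0.72 ± 0.052, adjusted p = 2.80e-09). The resistant libraries thus lay above the parental ones for BiP and HYOU1 and below them for DNAJC3. MANF was at -0.25 ± 0.055 (adjusted p = 0.000998) and DNAJB11 at -0.17 ± 0.050 (adjusted p = 0.00934), both near 0 or uncalled when libraries were scaled by size alone (-0.08 and -0.0030). HSP90B1 was at -0.16 ± 0.034 (adjusted p = 0.000752), and scaling by library size alone turned it to 0.0037. DNAJB9, the gene that fell most with the plasmid, averaged 31.7 ± 3.00 CPM in resistant libraries and 32.2 ± 2.13 CPM in parental libraries (-0.02 ± 0.079, adjusted p = 0.866). SDF2L1 was not called either (-0.01 ± 0.097, adjusted p = 0.911).

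PDIA3, PDIA4 and PDIA6 were lower in resistant cells by similar amounts, each less than DNAJC3. PDIA3 had 557, 571 and 562 CPM in resistant libraries, against 840.1, 816 and 812 CPM in parental libraries (log2 fold change -0.55 ± 0.034, adjusted p = 4.17e-10). PDIA4 had 172, 175 and 172 CPM in resistant libraries, against 255, 258 and 254 CPM in parental libraries (-0.57 ± 0.039, adjusted p = 1.42e-09). PDIA6 had 184, 199 and 197 CPM in resistant libraries, against 287, 286 and 288 CPM in parental libraries (-0.57 ± 0.041, adjusted p = 2.91e-09). All 3 lay 1.46-fold to 1.48-fold below the parental level, with no overlap between libraries. CALR was at 380.2 ± 10.6 CPM in resistant libraries and 457 ± 7.94 CPM in parental libraries (-0.26 ± 0.037, adjusted p = 1.14e-05). CANX was at -0.11 ± 0.037 (adjusted p = 0.0172), which scaling by library size alone turned to 0.05, and which was not called without parental library a or b (-0.11 each, adjusted p = 0.0604 and 0.0606). ERO1B (-0.12 ± 0.084, adjusted p = 0.253) and CRELD2 (0.14 ± 0.075, adjusted p = 0.136) were not called.

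HERPUD1 had the largest rise among the 35 genes in resistant cells. It had 172, 176 and 171 CPM in resistant libraries, against 108, 112 and 107.3 CPM in parental libraries, 1.59-fold higher (log2 fold change 0.67 ± 0.043, adjusted p = 5.62e-10). SEL1L averaged 145 ± 12.6 CPM in resistant libraries and 118 ± 3.21 CPM in parental libraries (0.29 ± 0.056, adjusted p = 0.000249). DERL1 was at 0.20 ± 0.046 (adjusted p = 0.00132) and WFS1 at 0.28 ± 0.070 (adjusted p = 0.00251). These genes of the degradation machinery and the ER membrane were higher in every resistant library. EDEM1 was at 0.13 ± 0.046 (adjusted p = 0.0243), a call lost without resistant library 2 or 3 or any one parental library (0.11 to 0.14, adjusted p = 0.0573 to 0.111). SYVN1, the ligase, was the one degradation gene called lower (-0.15 ± 0.050, adjusted p = 0.0201), though scaling by library size alone turned it to 0.02, and the call was lost without resistant library 3 or any one parental library (-0.12 to -0.15, adjusted p = 0.0547 to 0.0601). Same-strand FAU is among the genes that overlap 14.9% of the SYVN1 exon bases. DERL2 and SELENOS were both at -0.02 and not called.

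Of the translocation and export genes, SEC24D had the largest decrease of the 35 in resistant cells. It had 37.2, 40.8 and 46.5 CPM in resistant libraries, against 82.6, 80.8 and 79.0 CPM in parental libraries, 1.94-fold lower (log2 fold change -0.96 ± 0.068, adjusted p = 2.20e-09). SEC61B rose to 70.6 ± 5.50 CPM in resistant libraries, against 59.3 ± 1.48 CPM in parental libraries (0.25 ± 0.059, adjusted p = 0.00161), and OSTC to 54.9 ± 3.06 CPM in resistant libraries, against 46.6 ± 0.680 CPM in parental libraries (0.24 ± 0.058, adjusted p = 0.00231). SEC61A1 was at 0.05 ± 0.038 and not called (adjusted p = 0.243), although its 3 resistant libraries lay above its parental ones; it was called when libraries were scaled by size alone (0.22, adjusted p = 7.06e-05). SSR1 (-0.08) and SPCS3 (-0.02) were not called.

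**Figure D3:**
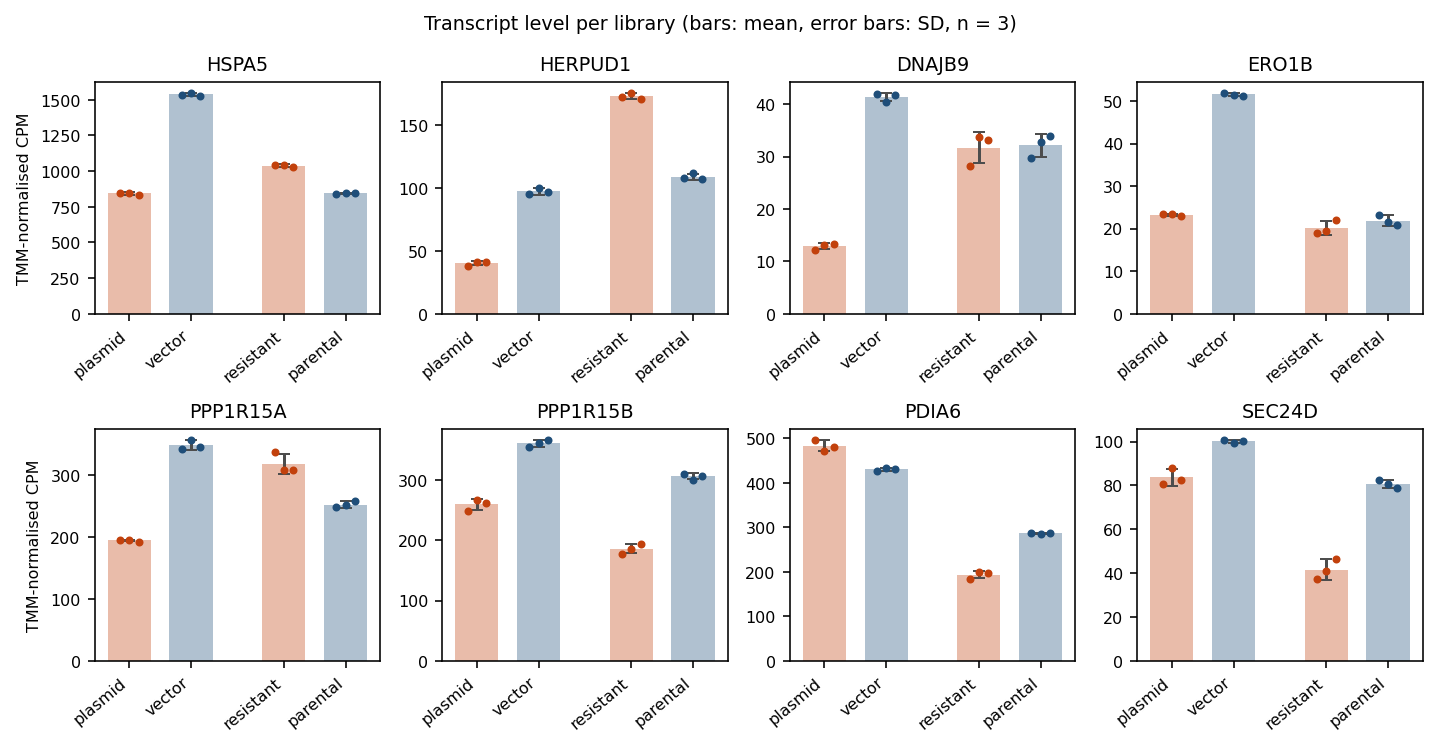
TMM-normalised CPM (y axis, from 0, a separate scale for each gene) of 8 genes in the plasmid, vector, resistant and parental libraries. Bars are means, error bars SD and dots the 3 libraries of each group. HSPA5, HERPUD1 and PPP1R15A are lower in plasmid than in vector cells and higher in resistant than in parental cells, PPP1R15B and SEC24D are lower in both, and DNAJB9 and ERO1B are lower in plasmid cells only by call.

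The separate controls let the responses be set against each other in 1 fit of all 12 libraries, as the log2 change with the plasmid minus the log2 change of resistant over parental cells. This difference was called for 29 of the 35 genes, 21 below 0 and 8 above 0, where 61.8% of all 18516 genes tested were called, 31.6% below 0 and 30.2% above 0. With libraries scaled by size alone the split was 24 below and 5 above. HERPUD1 had the largest difference, at -1.96 ± 0.056. DNAJB9 followed at -1.69 ± 0.10, then SEL1L at -1.23 ± 0.067, PPP1R15A at -1.20 ± 0.051 and HSPA5 at -1.19 ± 0.035. At the other end, PDIA6 was at 0.71 ± 0.046, SEC24D at 0.68 ± 0.080 and PDIA3 at 0.53 ± 0.038. These differences each had an adjusted p under 0.05 in every alternative run without a fold threshold, and those of HERPUD1, DNAJB9, SEL1L, PPP1R15A, HSPA5 and PDIA6 also against a change of 1.5-fold. XBP1 (-0.06 ± 0.047, adjusted p = 0.246), DNAJB11 (-0.03 ± 0.055, adjusted p = 0.675) and WFS1 (0.01 ± 0.084, adjusted p = 0.913) had no called difference. Scaling moved several of these calls: by library size alone and with upper quartile factors XBP1 (-0.24 and -0.21, adjusted p = 7.95e-05 and 0.000645), DNAJB11 (-0.21 and -0.18, adjusted p = 0.00251 and 0.00872) and DERL2 (-0.33 and -0.30, adjusted p = 0.00165 and 0.00397) were called. The same scalings took away the calls of HSP90B1 (0.05 and 0.08, adjusted p = 0.311 and 0.0844) and PPP1R15B (0.04 and 0.07, adjusted p = 0.513 and 0.199), and library size alone that of EIF2AK3 (0.17, adjusted p = 0.0795). Weak calls were those of DNAJC3 (-0.15 ± 0.062, adjusted p = 0.0458), lost without any one library except plasmid library 2 and resistant library 1 (-0.09 to -0.15, adjusted p = 0.0646 to 0.239), and of MANF (-0.18 ± 0.072, adjusted p = 0.0366), lost without any one library except plasmid library 1, resistant library 3 and parental library c (-0.12 to -0.19, adjusted p = 0.0525 to 0.188). The CRELD2 difference (-0.27 ± 0.088, adjusted p = 0.0122) was lost without plasmid library 2 (-0.21, adjusted p = 0.0583) or vector library 2 (-0.23, adjusted p = 0.05). The medium and the count table differ between the experiments along with the treatment, so those cannot be told apart in this difference.

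**Figure D4:**
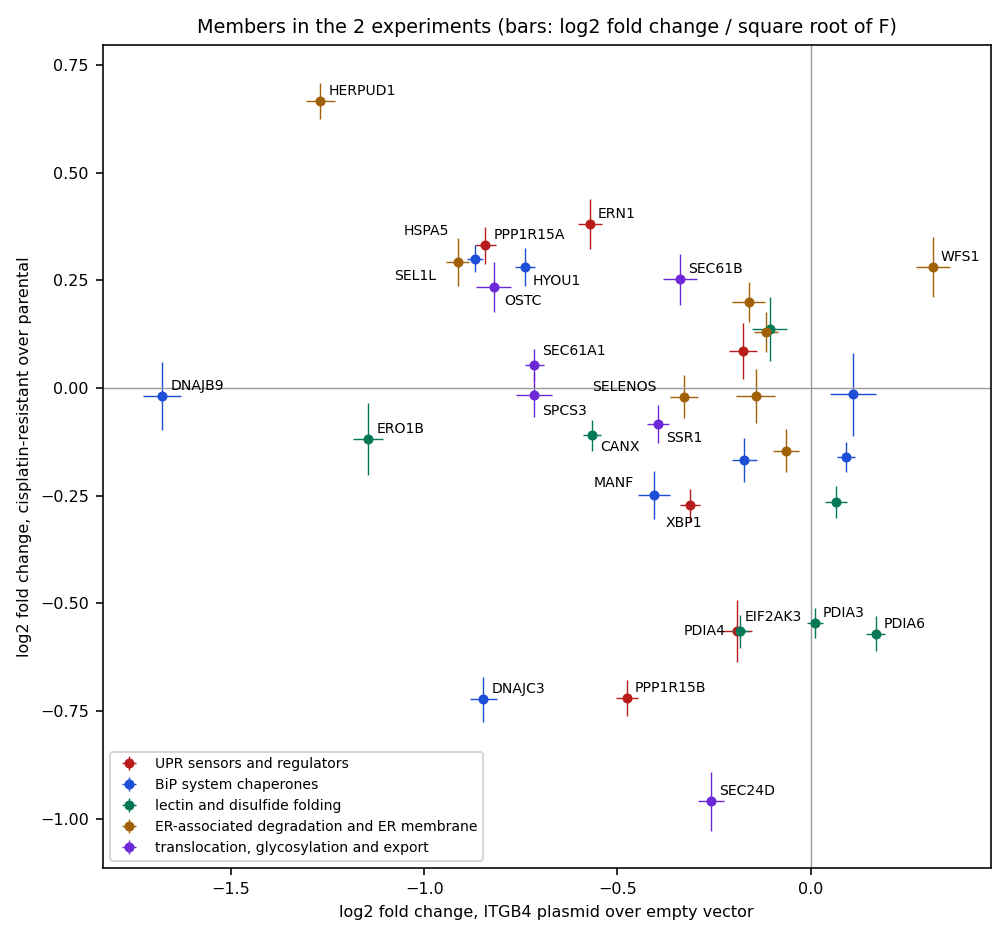
Log2 fold change with the ITGB4 plasmid over empty vector (x axis) against log2 fold change in cisplatin-resistant over parental cells (y axis) for 35 genes, coloured by role, with bars of the approximate standard error. Genes such as HERPUD1, HSPA5 and SEL1L lie at the upper left, PPP1R15B and DNAJC3 at the lower left, and the disulfide isomerases PDIA3 and PDIA6 below 0 near the vertical line.

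By calls, 10 genes fell with the plasmid and rose in resistant cells: ERN1, PPP1R15A, HSPA5, HYOU1, HERPUD1, EDEM1, SEL1L, DERL1, SEC61B and OSTC. Across the 15655 genes tested in both experiments, 13.4% had that pair of calls. Another 9 were lower in both, EIF2AK3, XBP1, PPP1R15B, DNAJB11, DNAJC3, MANF, CANX, PDIA4 and SEC24D, against 7.72% of all genes. HSP90B1, CALR and PDIA6 rose with the plasmid and fell in resistant cells, against 16.6% of all genes, and WFS1 alone was higher in both, against 7.11%. A further 9 fell with the plasmid and were not called in resistant cells. For that pair the share over all genes was not counted. Taken singly, 35.7% of all genes tested were lower with the plasmid and 54.5% were called in resistant cells.

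The 8 carriers of an exact ERSE did not share one pair of calls. HSPA5 was lower with the plasmid and higher in resistant cells; HSP90B1, CALR and PDIA6 were the reverse; XBP1 and CANX were lower in both; ERO1B and CRELD2 were lower with the plasmid and not called in resistant cells. The log2 changes of the ERSE carriers with the plasmid ranged from -1.14 in ERO1B to 0.17 in PDIA6. Of the ERSE-II carriers, HERPUD1 and HYOU1 had the pair of calls of HSPA5, and SDF2L1 was not called in either experiment.

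Levels between genes were compared per kilobase of merged exons. In vector cells CALR (401 CPM per kb), HSPA5 (394), HSP90B1 (269), CANX (256) and PDIA3 (241) stood highest, and in plasmid cells HSPA5 was at 216, below CALR at 419, HSP90B1 at 287 and PDIA3 at 243 CPM per kb. In resistant cells HSPA5 stood at 266 CPM per kb, above XBP1 and HSP90B1 at 150.0 each and CANX at 145, while in parental cells HSPA5 was at 216 and PDIA3 at 194 CPM per kb. Among the lowest were ERN1, at 6.25 in plasmid, 9.29 in vector, 8.66 in resistant and 6.65 CPM per kb in parental cells, and CRELD2, at 6.20 in plasmid, 6.68 in vector, 5.51 in resistant and 5.00 CPM per kb in parental cells. The tables were normalised separately, so these levels were not tested across them.

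Other genes of the same pathways gave a wider view. Among 14 other UPR and PERK-branch factors tested, 7 were lower and 3 higher with the plasmid, and 3 were lower and 7 higher in resistant cells. Over all genes tested, 35.7% were lower and 36.5% higher with the plasmid, and 27.7% were lower and 26.8% higher in resistant cells. The lists are short beside these shares. ATF3, a stress transcription factor, was at 17.0 ± 0.905 CPM in plasmid libraries and 52.2 ± 1.66 CPM in vector libraries (log2 fold change -1.63 ± 0.048, adjusted p = 1.02e-14), and at 40.8 ± 3.47 CPM in resistant libraries and 19.3 ± 0.945 CPM in parental libraries (1.08 ± 0.077, adjusted p = 2.48e-09). CHAC1, a glutathione-degrading enzyme induced by ATF4, went the other way, at 113 ± 3.73 CPM in plasmid libraries and 50.8 ± 0.874 CPM in vector libraries (1.15 ± 0.034, adjusted p = 1.19e-14), and at 198 ± 12.8 CPM in resistant libraries and 276 ± 7.96 CPM in parental libraries (-0.48 ± 0.047, adjusted p = 1.61e-07). TRIB3, a pseudokinase of the same branch, fell 2.16-fold with the plasmid (-1.11 ± 0.031, adjusted p = 4.62e-15) and rose 1.82-fold in resistant cells (0.86 ± 0.049, adjusted p = 1.05e-10). CREB3L2, an ER-anchored factor related to ATF6, fell 2.54-fold with the plasmid (-1.35 ± 0.035, adjusted p = 1.85e-15) and 1.19-fold in resistant cells (-0.26 ± 0.072, adjusted p = 0.00616). ATF3 and CHAC1 thus moved in opposite directions in each experiment.

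Other ER folding enzymes had 15 lower and 4 higher of 24 with the plasmid (all genes: 35.7% and 36.5%). In resistant cells 12 were lower and 5 higher of 23 (all genes: 27.7% and 26.8%). ERO1A, the paralog of ERO1B, was at 827 ± 27.9 CPM in plasmid libraries and 551 ± 5.68 CPM in vector libraries (log2 fold change 0.59 ± 0.026, adjusted p = 2.86e-12), and at 258 ± 8.36 CPM in resistant libraries and 584 ± 7.63 CPM in parental libraries (-1.18 ± 0.038, adjusted p = 6.85e-14). QSOX1, another sulfhydryl oxidase, was 1.49-fold higher with the plasmid (0.57 ± 0.029, adjusted p = 1.34e-11) and 1.73-fold lower in resistant cells (-0.79 ± 0.038, adjusted p = 1.40e-11). The 2 ERO1 paralogs thus differed in direction with the plasmid, and ERO1A fell in resistant cells together with PDIA3, PDIA4 and PDIA6. DNAJC10, the J-domain reductase ERdj5, fell with the plasmid (-0.64 ± 0.028, adjusted p = 1.99e-12) and rose in resistant cells (0.49 ± 0.047, adjusted p = 1.37e-07), the pair of calls of HSPA5.

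Degradation genes outside the 36 had 12 lower and 3 higher of 19 with the plasmid (all genes: 35.7% and 36.5%). In resistant cells 11 were lower and 2 higher of 19 (all genes: 27.7% and 26.8%). UBE2J1, the ubiquitin-conjugating enzyme of the ER membrane, was at -0.57 ± 0.029 with the plasmid (adjusted p = 1.86e-11) and at -0.21 ± 0.046 in resistant cells (adjusted p = 0.000842). UBE2G2, another such enzyme, was not called with the plasmid (-0.06 ± 0.033, adjusted p = 0.144) and rose in resistant cells (0.44 ± 0.051, adjusted p = 1.10e-06). Translocon, oligosaccharyltransferase and signal peptidase genes had 16 lower and 4 higher of 24 with the plasmid, and 12 lower and 6 higher of 24 in resistant cells. MAGT1, a subunit of the oligosaccharyltransferase, fell with the plasmid (-0.58 ± 0.034, adjusted p = 1.20e-10) and in resistant cells (-0.15 ± 0.058, adjusted p = 0.0343). Its paralog TUSC3 also fell with the plasmid (-0.51 ± 0.027, adjusted p = 2.81e-11) and rose in resistant cells (0.66 ± 0.050, adjusted p = 4.60e-09). COPII coat genes other than SEC24D had 3 lower and 6 higher of 12 with the plasmid, and 8 lower and 0 higher of 12 in resistant cells. The higher count of the coat was 3 in several alternatives, scaling by library size alone among them. SAR1A, the GTPase that starts the coat, was 2.17-fold higher with the plasmid (1.12 ± 0.027, adjusted p = 1.03e-15) and 1.32-fold lower in resistant cells (-0.40 ± 0.044, adjusted p = 5.32e-07). The inner coat subunit SEC23A was at 0.09 ± 0.026 with the plasmid (adjusted p = 0.00611) and was 1.57-fold lower in resistant cells (-0.65 ± 0.058, adjusted p = 5.20e-08), where SEC24D was lower too.

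As a list, chaperones of the cytosol and mitochondria did not fall with the plasmid as most of the ER genes did. Some mitochondrial members did fall. Of 16 tested, 8 were higher and 4 lower, where 36.5% of all genes were higher and 35.7% lower. Among them were the cytosolic HSPA4 (log2 fold change 0.34 ± 0.026, adjusted p = 3.26e-09) and the mitochondrial HSP70 HSPA9 (-0.45 ± 0.023, adjusted p = 1.48e-11). The mitochondrial HSPE1 also fell (-0.61 ± 0.060, adjusted p = 1.12e-07), while the mitochondrial TRAP1 rose (0.38 ± 0.043, adjusted p = 5.69e-07). The difference between experiments was -1.13 for HSPE1, -1.07 for HSPA9, -0.60 for HSPD1 and -0.27 for TRAP1, where HSPA5 was at -1.19. In resistant cells 7 of 15 were higher and 4 lower, where 26.8% of all genes were higher and 27.7% lower. There HSPA9 was at 0.59 ± 0.034 (adjusted p = 1.38e-10) and HSPA4 at -0.12 ± 0.041 (adjusted p = 0.0163). The cytosolic co-chaperone DNAJA1 was at 0.30 ± 0.027 with the plasmid (adjusted p = 3.06e-08) and at -0.45 ± 0.041 in resistant cells (adjusted p = 5.37e-08). The median over the list was 0.12 with the plasmid and 0.064 in resistant cells.

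**Figure D5:**
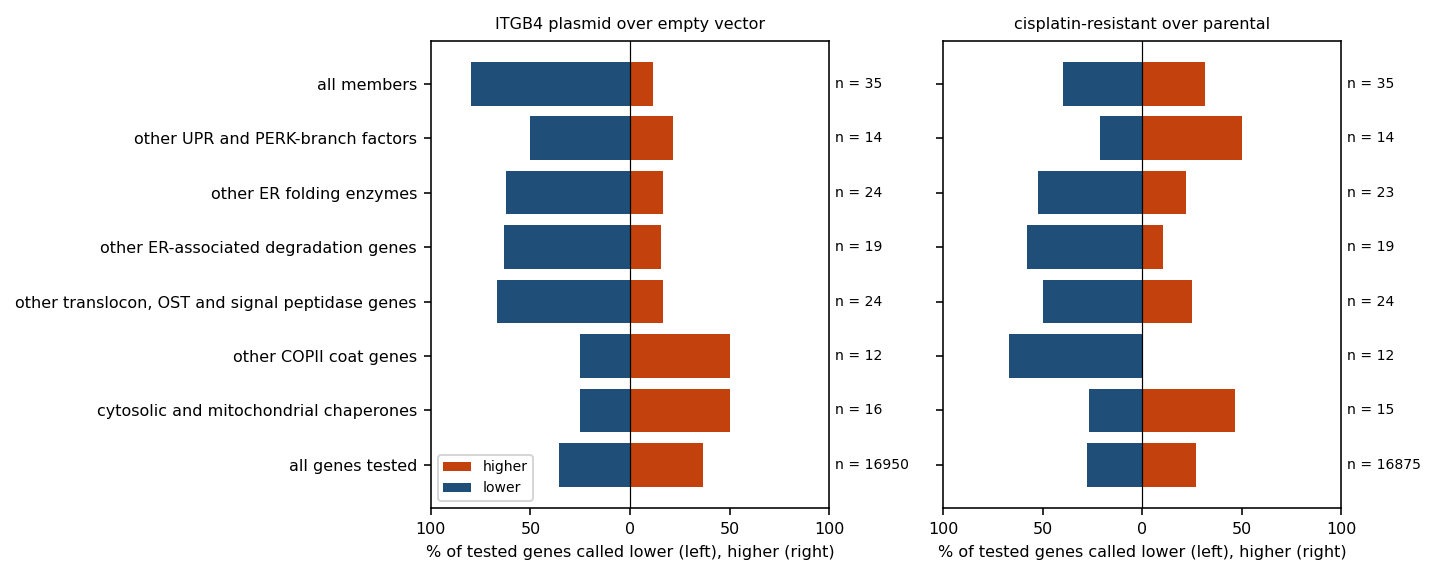
Share of tested genes (x axis, percent) called lower (blue, to the left) or higher (orange, to the right) in the 36-gene group, 6 lists of related genes and all genes tested, for plasmid over vector (left panel) and resistant over parental cells (right panel), with the number of genes tested beside each bar. With the plasmid, 28 of 35 members were lower against 35.7% of all genes, and the lists of ER folding, degradation and translocation genes also have longer bars to the left than to the right.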

How the data were processed

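Total RNA was converted to sequencing libraries by a kit that keeps strand, per the labels' protocols. The authors deposited raw counts per gene, in one table per experiment. Per the file headers, overexpression reads were counted as pairs over exons by featureCounts 2.0.1 with the annotation of Ensembl release 107 (GRCh38) and without the strand option; the alignment names contain "hisat". How the resistance table was aligned and counted is not given in the sources used here. Submitters' processing notes name hg38.

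Each experiment was analysed on its own after filterByExpr filtering and TMM scaling, by the quasi-likelihood test of edgeR 4.0.16 in R 4.3.3, and p-values were adjusted by Benjamini-Hochberg over every gene tested. The difference between experiments came from 1 fit of all 12 libraries with 4 group means. Replicates differed by more than sampling noise (chi-square per degree of freedom 1.54 to 12.2). Scripts were tested on simulated data. Alternatives were other scalings and filters, DESeq2 1.42.0, limma-voom (limma 3.58.1), glmTreat, a joint fit, a replicate block and leaving out each library. Exon lengths and overlaps are from GENCODE 29, promoter windows from RefSeq (GRCh38.p14). Intervals set by the 3-count limit cover counting error only.

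The 36 genes, the related lists and the markers were chosen with earlier results of these data known. Per-library values are printed for genes called in a comparison with an absolute log2 fold change of at least 0.5 there, and for ERN1, EIF2AK3, ATF6, XBP1 and HSPA5 always. Of each related list, up to 2 called genes per direction and experiment with the largest change and a mean of at least 1 CPM could be named, of which some are described.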

Additional observations from a re-analysis of the deposited data

Results flagged for a closer look

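For 13 of the 35 genes tested, the responses to the ITGB4 plasmid and in cisplatin-resistant cells had opposite signs, each called. The values below are the difference, as the log2 change with the plasmid minus that in resistant cells, from the joint fit of 12 libraries. A called difference was part of the rule for this flag. Opposite changes add up in it, so its call adds little to the calls in each experiment. Across the 15655 genes tested in both experiments, 13.4% were called lower with the plasmid and higher in resistant cells, and 16.6% the reverse. Among sensors and regulators the members with opposite calls were ERN1 (-0.98) and PPP1R15A (-1.20). Of the BiP system, HSPA5 (-1.19) and HYOU1 (-1.04) were lower with the plasmid and higher in resistant cells, while HSP90B1 (0.23) was the reverse. CALR (0.31) and PDIA6 (0.71) shared the direction of HSP90B1 among the folding genes. Degradation genes gave HERPUD1 (-1.96), SEL1L (-1.23), EDEM1 (-0.27) and DERL1 (-0.39), and translocation genes gave SEC61B (-0.61) and OSTC (-1.08). Single libraries or the scaling take away the calls of CALR with the plasmid, of EDEM1 in resistant cells and of HSP90B1 in both experiments. The HSP90B1 difference was not called either with libraries scaled by size alone (0.05, adjusted p = 0.311) or with upper quartile factors (0.08, adjusted p = 0.0844). Medium and count table differ between the experiments too, and their part in these differences was not tested.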

How the results depend on the processing

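Against a change of 1.5-fold (glmTreat), 11 members stayed called lower and 0 higher with the plasmid, 3 lower and 0 higher in resistant cells, and 12 in the difference, 11 below 0 and 1 above; over all genes it called 3818 with the plasmid (1880 higher, 1938 lower), 2107 in resistant cells (1042 higher, 1065 lower) and 5735 in the difference. Upper quartile scaling left 2 members higher with the plasmid. Scaling by library size alone left 9 members and 3111 genes lower in resistant cells, and 5 members above 0 in the difference.

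Signs turned for members near 0. PDIA3 with the plasmid was at -0.029 by library size alone, -0.054 with upper quartile factors, -0.0077 with the 1 CPM filter and -0.0029 in the joint fit. In resistant cells, library size alone gave 0.0037 for HSP90B1, 0.054 for CANX, 0.018 for SYVN1 and 0.047 for ERO1B. Library size alone and upper quartile factors gave DNAJB9 0.15 and 0.088, SDF2L1 0.15 and 0.091, DERL2 0.15 and 0.088, SELENOS 0.14 and 0.086, SSR1 0.081 and 0.023, and SPCS3 0.15 and 0.090. In the difference they gave SDF2L1 -0.080 and -0.047, SYVN1 -0.12 and -0.088, and WFS1 -0.17 and -0.13, with -0.015 for WFS1 under the 1 CPM filter. Leaving out 1 library moved PDIA3 with the plasmid between -0.00090 and 0.021. In resistant cells it moved DNAJB9 between -0.073 and 0.064, SDF2L1 between -0.14 and 0.057, DERL2 between -0.059 and 0.031, SELENOS between -0.058 and 0.032, and SPCS3 between -0.056 and 0.018. In the difference DNAJB11 ran from -0.027 to 0.013 and WFS1 from -0.034 to 0.076. The cause of these sign turns was not tested. Leaving out 1 library left 29 to 32 members called with the plasmid, 22 to 26 in resistant cells and 26 to 29 in the difference.

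Same-numbered plasmid and vector libraries did not deviate together (r = -0.066 to 0.027 over 11849 genes, against -0.056 to 0.057 for other pairs). That does not show whether they were prepared in pairs, since a pairing with little shared deviation would look the same. With a replicate block 27 members were lower and 3 higher with the plasmid, of 12070 genes called; CALR and CRELD2 were no longer called, and no other member's call changed. No paired analysis was possible because the parental columns carry no number tied to a sample for the resistance comparison. The depth of 22701466 counts or more per library left at least 272 counts in each tested member and library. For DERL3 depth is not the only limit. Of its exon bases 77.0% overlap SMARCB1 on the opposite strand, from which reads counted without strand cannot be separated.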
